A study of Mus musculus with 12 samples.

Results

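The comparison described here is IFNβ against vehicle in 3s cells, a mouse B cell lymphoma line whose Runx1 alleles are floxed. It rests on 6 of the 12 arrays of the series, 3 cultures treated with IFNβ and 3 treated with vehicle, chosen by cell name and treatment. All 30106 genes read by at least 1 probe set of their own were compared. The 3s line was established from spleen lymphoma tissue of Mx1Cre+/Rx1fl/fl/EµMyc/p53+/- mice (strain C57BL6/CBA), where Rx1 stands for Runx1. Its cultures received 50 U/ml IFNβ for 72 h, or the vehicle PBS with 0.1% BSA, and then grew for 6 days in fresh medium before RNA was taken. Both groups therefore carry the Mx1Cre transgene, the floxed Runx1 alleles, the Eµ-Myc transgene and the p53 mutation, and the study describes the line as p53 null. The other 6 arrays are of 30s cells, from Mx1Cre+/Rx1WT/WT/EµMyc/p53+/- mice, given the same IFNβ or vehicle treatment, 3 cultures each. The question of the design is what changes in the transcriptome when IFNβ has switched on Cre and Runx1 can be excised. In 3s cells IFNβ, Cre and the excision go together, so this comparison cannot tell their effects apart. The study used the 30s cells as its control for IFNβ and Cre.

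Runx1 is the DNA-binding subunit of a transcription factor that is formed with Cbfb and can activate or repress genes. In blood-forming tissue it is needed for the development of B and T cells and is often altered in leukaemia. The Mx1 promoter that drives Cre is itself switched on by interferon, and the Eµ enhancer drives Myc in cells of the B lineage, so that the lymphomas of these mice are of B cell type.

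All values are log2 levels after RMA, a procedure that corrects background, normalises arrays by quantiles and sums up the probes of a probe set, and every change is a log2 fold change, IFNβ minus vehicle. The 3 cultures of a group come from 1 line, so the p-values measure the spread between cultures of that line and not between tumors or mice. The genotype given in the labels changes with the treatment within each line and so contradicts the cell names, and it was not used. Of 12 listed B cell markers 10 were measured and 9 of them, Cd79a, Cd79b, Pax5, Ebf1 and Ighm included, had a mean log2 level above 8 in 3s cells. 0 of the 10 passed the test and 4 had an unadjusted p under 0.05, and the mean over the list lay between 12.58 and 12.62 on the IFNβ arrays and between 12.65 and 12.73 on the vehicle arrays. The part of this shift in the results below was not tested. Of the markers of T and NK cells (12 measured) and of erythroid cells and platelets (6), 0 had a mean above 8, of 13 for myeloid cells 1 did (Mrc1) and of 10 for stromal and endothelial cells 1 did (Pecam1). Of the markers of these other cells only Mrc1, the mannose receptor, passed the test, with a rise of 0.35. Runx1 itself read 7.69, 7.93 and 8.03 on the IFNβ arrays and 7.78, 7.92 and 8.0 on the vehicle arrays. Its groups overlapped. Where its probes lie relative to the excised exon is not stated in the sources used, and this level is no measure of excision.

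In 3s cells 307 genes, 1.02% of those tested, changed at an adjusted p under 0.05 in limma's moderated test, and 2424 had an unadjusted p under 0.05. Of the 307, 175 rose (0.581% of all genes) and 132 fell (0.438%). The changes were mostly small. The median size was 0.41 on the log2 scale, 75 genes differed by more than 1.5-fold and 17 by more than 2-fold, 12 of these upward and 5 downward. In all 307 the 3 IFNβ arrays lay on one side of the 3 vehicle arrays, which was so in 13.4% of all genes. Calls were more frequent among bright genes, with 2.10% of the 8280 genes above a mean log2 level of 8 called, against 0.168% of the 17283 genes under 6. Protein-coding genes made up 273 of the 307. Of the 307 calls, 148 (85 rises and 63 falls) held at an adjusted p under 0.05 when any 1 of the 6 arrays of 3s cells was left out, and in what follows a call is said to hold when it is one of these. The word covers no other setting. Of the 307 calls, 146 remained in a fit of the 3s arrays alone and 161 with the replicate number as a block. Calls said to hold can fail there, such as Il17ra and Acsl4 in the former. Mtor, Ddit4, F9 and Zfp558 fail in the latter, and Ncapd3 in each.

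**Figure D1:**
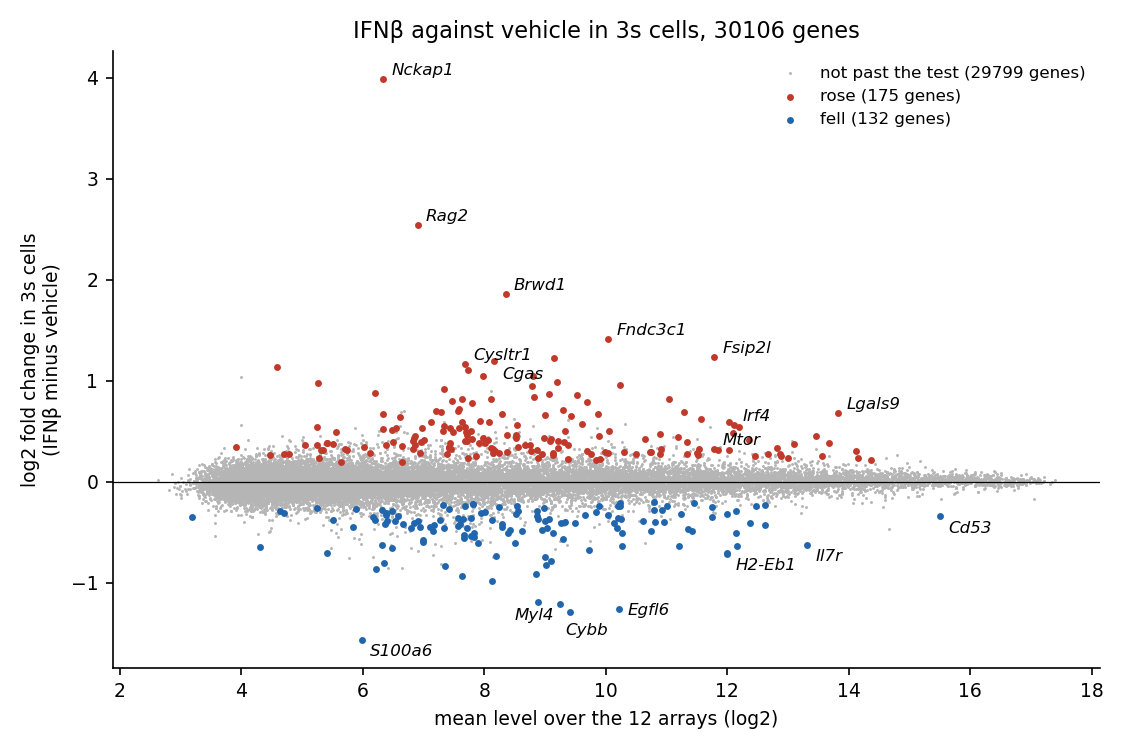
Log2 fold change in 3s cells (IFNβ minus vehicle, vertical axis) against the mean log2 level over the 12 arrays (horizontal axis) for 30106 genes, 1 point per gene, with the 175 genes that rose in red, the 132 that fell in blue and the rest in grey. Nckap1, Rag2 and Brwd1 stand above the other rises, and most called genes lie within 1 log2 unit of 0.

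Nckap1, a subunit of the WAVE complex through which Rac drives the branching of actin filaments, changed most. It read 9.78, 9.80 and 9.65 in the IFNβ cultures, against 5.74, 5.63 and 5.89 in the vehicle cultures. Its arrays were far apart, and in 30s cells all 6 arrays were low, with group means of 4.93 after IFNβ and 4.89 with vehicle. The rise was 3.99 (SE 0.071, 15.9-fold, limma adjusted p = 1.42e-10). Its haematopoietic paralogue Nckap1l, the member of the complex normally used in lymphocytes, averaged 13.59 in the IFNβ cultures and 13.61 in the vehicle cultures and did not pass the test.

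Rag2, which with Rag1 forms the recombinase that assembles antigen receptor genes, read 9.74, 9.84 and 9.54 in the IFNβ cultures, against 7.03, 7.37 and 7.10 in the vehicle cultures, a rise of 2.54 (SE 0.125, limma adjusted p = 3.67e-06). Brwd1, a chromatin reader with bromodomains and WD repeats, read 10.52, 10.69 and 10.69 in the IFNβ cultures, against 8.76, 8.82 and 8.75 in the vehicle cultures, a rise of 1.85 (SE 0.094, limma adjusted p = 3.67e-06). For both genes the groups were well apart. Cgas, the cytosolic DNA sensor, read 10.03, 9.92 and 9.90 in the IFNβ cultures, against 8.74, 8.73 and 8.79 in the vehicle cultures, and it rose by 1.20 (SE 0.093, limma adjusted p = 8.11e-05).

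The other rises of more than 2-fold belong to no single process. Fndc3c1, which encodes a protein with fibronectin type III domains, rose by 1.41, and Fsip2l, a relative of a sperm fibrous sheath protein, by 1.23. Cysltr1, the receptor for cysteinyl leukotrienes, read 6.94, 6.77 and 6.72 in the IFNβ cultures, against 5.84, 5.70 and 5.39 in the vehicle cultures, a rise of 1.16 (limma adjusted p = 1.62e-04) between groups that did not overlap. Vps26b, part of the retromer, which recycles cargo from endosomes, and Hsd17b13, an enzyme of lipid droplets, each rose by 1.05. The predicted gene Gm16077 and 2 variable segments of the kappa light chain make up the 12. Just under 2-fold were Pik3r3, a regulatory subunit of phosphoinositide 3-kinase (0.99), Cfap300, a cilium protein (0.97), and the linker histone gene H1f2 (0.96). H1f2 is a less certain case, since its call did not hold without 5 of the 6 arrays, with an adjusted p of up to 0.158.

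The largest fall was that of S100a6, a small calcium-binding protein. It read 6.72, 6.21 and 6.71 in the IFNβ cultures, against 8.03, 7.81 and 8.49 in the vehicle cultures, and fell by 1.56 (SE 0.185, limma adjusted p = 0.00145). Cybb, the catalytic subunit of the phagocyte NADPH oxidase, read 7.56, 7.18 and 7.83 in the IFNβ cultures, against 8.78, 8.64 and 9.01 in the vehicle cultures, and fell by 1.29 (SE 0.137, limma adjusted p = 7.05e-04). Both genes varied more between cultures than most. Their groups did not overlap, which was so for every called gene. Myl4, a myosin light chain best known from the heart atrium, was much tighter, with 7.62, 7.55 and 7.68 in the IFNβ cultures, against 8.77, 8.84 and 8.85 in the vehicle cultures, and fell by 1.20 (SE 0.047, limma adjusted p = 4.10e-07).

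Egfl6, which encodes a secreted EGF-repeat protein, fell by 1.26, and Eml1, which binds microtubules, by 0.98. Tlr4, the receptor for bacterial lipopolysaccharide, read 7.33, 7.16 and 7.22 in the IFNβ cultures, against 8.10, 8.24 and 8.17 in the vehicle cultures, and fell by 0.94 (limma adjusted p = 3.73e-05). Plek, which protein kinase C phosphorylates, fell by 0.92, a call that did not hold without vehicle replicate 2 or 3 (adjusted p up to 0.0656). Bcl11a, a zinc finger repressor needed for B cell development, fell by 0.82. Cdkn1a, the p21 inhibitor of cyclin-dependent kinases, read 5.58, 5.95 and 5.83 in the IFNβ cultures, against 6.65, 6.47 and 6.64 in the vehicle cultures, a fall of 0.80 (limma adjusted p = 0.00153) that held.

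**Figure D2:**
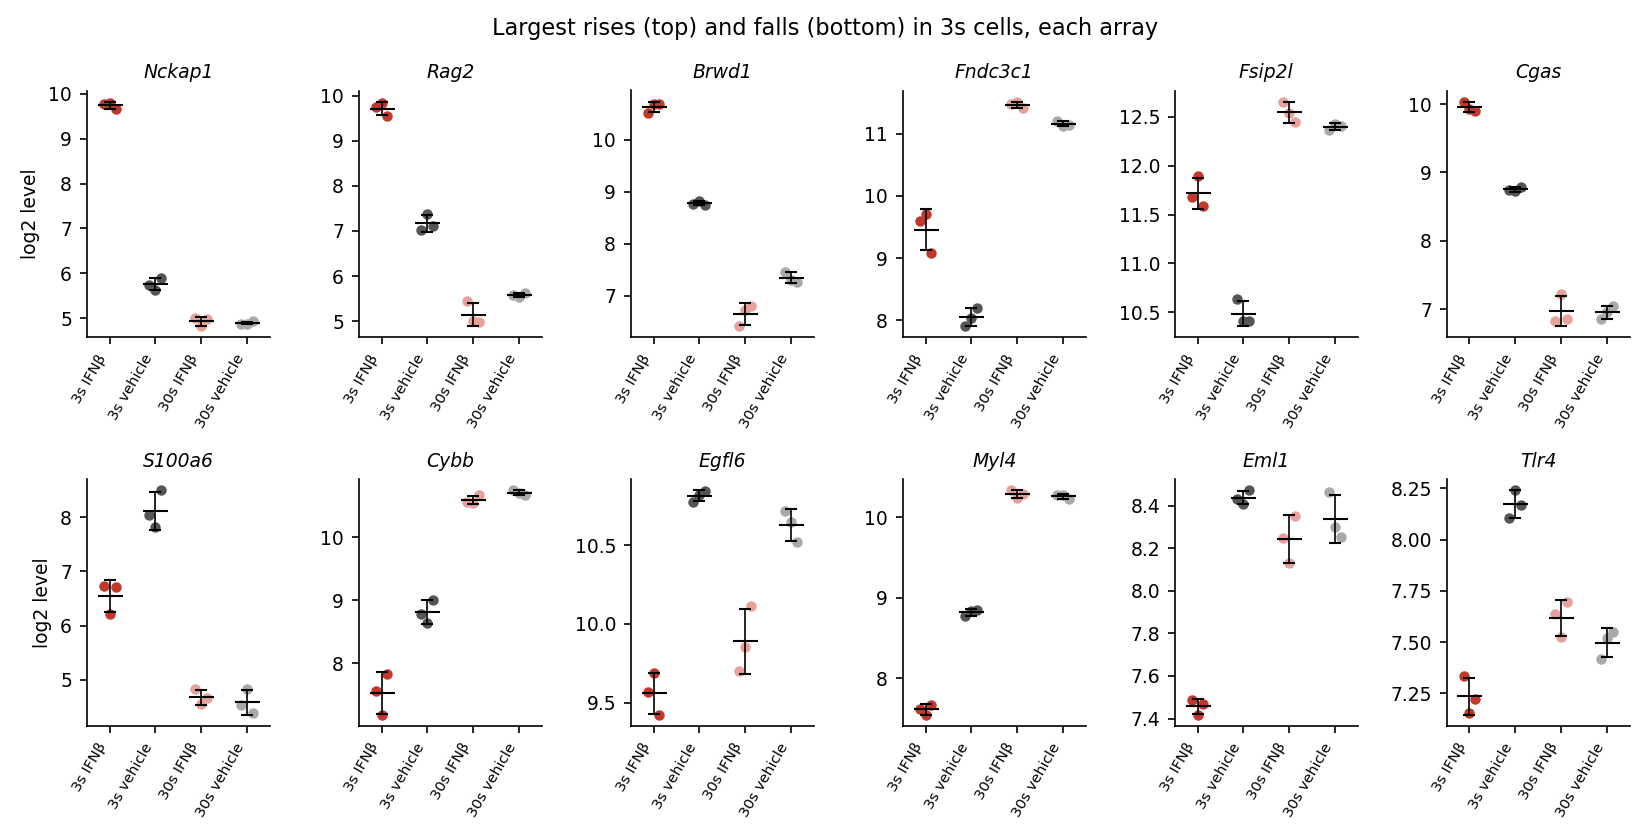
Log2 level on each array of the 6 genes with the largest rises (top row) and the 6 with the largest falls (bottom row) among the genes named by rule, in 3s cells and beside them in 30s cells, where points are single cultures and the bar and whiskers are the mean and SD of 3. The vertical axes do not start at 0. In 3s cells the IFNβ and vehicle cultures are apart in each panel, while in 30s cells the means differ by at most 0.74, in Egfl6.

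Runx proteins bind DNA through a short core sequence. Its form TGTGGT, called the core below, was looked for on either strand in the RefSeq promoters (GRCm38.p6, 250 bases before to 50 after each gene's start). Other forms of the sequence were not looked for, so they are neither marked nor counted. Of the 50 genes with the largest changes that the rule names, 41 have a promoter in the table, and 5 of these hold the core, namely Dmwd and Ublcp1, which rose, and S100a6, Cybb and Il7r, which fell. Their promoters are printed below 5′ to 3′ on the gene's strand with each match in capitals, as TGTGGT or, on the other strand, as ACCACA. They are those of Dmwd (chr7:19075950-19076249, plus strand), Ublcp1 (chr11:44470499-44470798, minus strand), S100a6 (chr3:90612644-90612943, plus strand), Cybb (chrX:9469275-9469574, minus strand) and Il7r (chr15:9529827-9530126, minus strand).
Dmwd: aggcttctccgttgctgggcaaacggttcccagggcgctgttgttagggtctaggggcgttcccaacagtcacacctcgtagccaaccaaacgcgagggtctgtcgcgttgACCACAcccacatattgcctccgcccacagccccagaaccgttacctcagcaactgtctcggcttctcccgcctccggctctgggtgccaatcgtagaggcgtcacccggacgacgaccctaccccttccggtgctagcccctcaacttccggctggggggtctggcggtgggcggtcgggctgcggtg
Ublcp1: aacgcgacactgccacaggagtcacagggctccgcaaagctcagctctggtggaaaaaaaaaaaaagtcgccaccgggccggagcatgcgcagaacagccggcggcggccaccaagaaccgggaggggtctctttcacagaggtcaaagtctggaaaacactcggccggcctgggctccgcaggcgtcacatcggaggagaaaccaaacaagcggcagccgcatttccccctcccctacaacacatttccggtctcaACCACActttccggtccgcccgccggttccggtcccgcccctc
S100a6: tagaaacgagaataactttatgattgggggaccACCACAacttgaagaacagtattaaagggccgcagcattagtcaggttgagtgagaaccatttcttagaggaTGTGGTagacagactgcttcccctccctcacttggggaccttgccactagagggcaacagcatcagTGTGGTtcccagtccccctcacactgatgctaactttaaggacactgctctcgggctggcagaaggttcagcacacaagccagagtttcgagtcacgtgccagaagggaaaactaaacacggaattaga
Cybb: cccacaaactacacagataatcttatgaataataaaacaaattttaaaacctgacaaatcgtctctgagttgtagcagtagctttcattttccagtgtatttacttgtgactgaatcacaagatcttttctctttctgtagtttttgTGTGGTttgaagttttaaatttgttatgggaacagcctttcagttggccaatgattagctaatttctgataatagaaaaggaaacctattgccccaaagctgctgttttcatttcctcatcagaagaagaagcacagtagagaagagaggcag
Il7r: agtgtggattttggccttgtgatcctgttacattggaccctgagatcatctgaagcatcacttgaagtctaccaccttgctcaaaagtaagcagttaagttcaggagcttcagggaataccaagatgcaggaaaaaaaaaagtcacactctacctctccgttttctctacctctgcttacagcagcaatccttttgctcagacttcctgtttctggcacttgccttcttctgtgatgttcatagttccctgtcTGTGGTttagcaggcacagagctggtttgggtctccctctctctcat

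S100a6 is the one of these with 3 matches, and each of the others has 1. Among all promoters that RefSeq provided here, 4573 of 27025 (16.9%) hold the core, and over those of the genes measured 2772 of 18035 (15.4%). It is held by 12 of the 128 promoters of genes that rose (9.38%) and by 17 of the 96 of genes that fell (17.7%). A match describes the letters of the window and is no evidence of binding.

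To see which functions the changed genes belong to, the 307 were sorted by known role after the results were seen, so that these classes describe the calls and support nothing by themselves. In 4 classes nearly all changes ran one way. Of 12 genes of the endoplasmic reticulum and the secretory pathway 11 rose, of 11 lysosomal genes 9 rose, all 7 genes of phosphoinositide 3-kinase and mTOR signalling rose, and all 7 genes of antigen presentation fell. Of 14 genes of lymphocyte signalling 11 fell, and of 21 transcription factors and chromatin proteins 15 rose. The largest classes, surface receptors and their ligands (14 rose, 16 fell) and the actin cytoskeleton and its regulators (11 rose, 16 fell), were mixed. In the class of innate sensing and interferon-linked genes 6 rose and 3 fell. Of the rest, 82 genes were not sorted and 38 are predicted genes, small RNAs and gene segments.

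**Figure D3:**
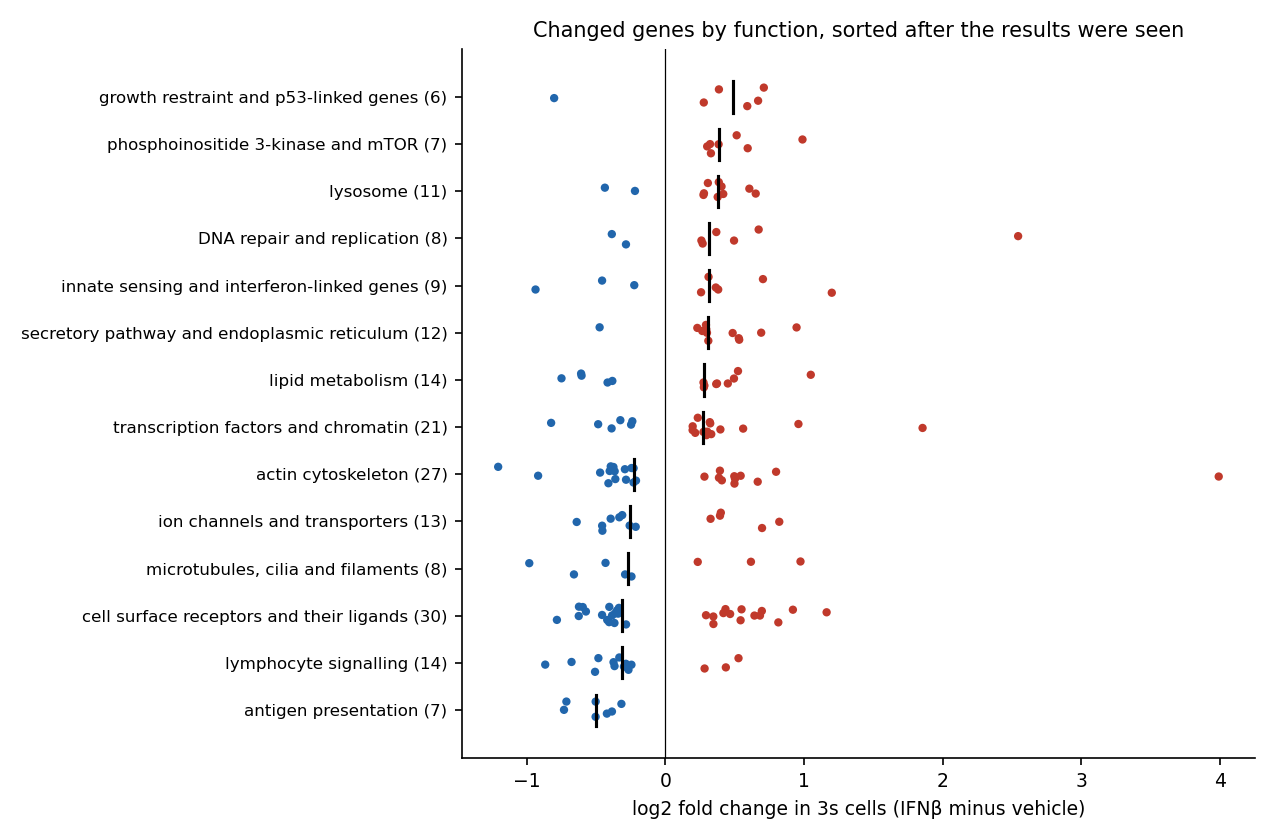
Log2 fold change in 3s cells (IFNβ minus vehicle, horizontal axis) of the genes that changed, 1 point per gene, by class of function (vertical axis, number of genes in brackets), with rises in red, falls in blue and the class median as a black line. The classes were made after the results were seen. Antigen presentation lies wholly below 0 and phosphoinositide 3-kinase and mTOR signalling wholly above.

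Of the 12 changed genes of the endoplasmic reticulum and the secretory pathway, 11 rose. This organelle folds and glycosylates proteins bound for the membrane or for secretion, and degrades those that fail to fold. Herpud1, a component of that degradation machinery, read 11.45, 11.56 and 11.39 in the IFNβ cultures, against 10.81, 10.79 and 10.73 in the vehicle cultures, a rise of 0.69 (SE 0.058, limma adjusted p = 1.32e-04). Edem3, which trims mannose from misfolded glycoproteins, read 12.44, 12.41 and 12.50 in the IFNβ cultures, against 11.93, 11.97 and 11.99 in the vehicle cultures, and rose by 0.49. The groups of both genes were clearly apart, and both calls held.

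Saraf, a membrane protein of the endoplasmic reticulum that damps store-operated calcium entry, rose by 0.95, with 9.62, 9.80 and 9.86 in the IFNβ cultures, against 8.67, 8.66 and 9.10 in the vehicle cultures. Calu, a calcium-binding protein of the same compartment, rose by 0.31, and Ktn1, which anchors kinesin to its membrane, by 0.30. These 3 calls held, as did that of the calreticulin relative Calr4 (0.53). Those of Pdia5, Rrbp1, Golim4, Pomt1 and Ube2j1, which rose by 0.23 to 0.53, each failed without 4 to 6 of the 6 arrays. The gene of this class that fell is Asph, an aspartate hydroxylase (a fall of 0.47, which held).

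A list of 76 genes of folding, glycosylation and degradation in the endoplasmic reticulum, written after the results were seen, has 69 measured members. Of them 11 rose, 0 fell and 58 did not pass, so that 15.9% were called, against 1.02% of all genes and 2.10% of bright ones. The members were chosen with the calls known, so this share cannot test whether the group changed more often than other genes. The median over all 69 was 0.05, against -0.002 over all genes and 0.01 over the 8280 bright ones. Without 1 of the 6 arrays 6 to 8 of the list were called, and 5 when the 3s arrays were fitted alone. In a narrower list of the unfolded protein response, 1 of 26 measured genes was called (Herpud1), and its chaperones and sensors did not pass the test.

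Of the 11 changed lysosomal genes, 9 rose. Siae, a sialic acid esterase, read 9.72, 9.78 and 9.79 in the IFNβ cultures, against 9.13, 9.02 and 9.18 in the vehicle cultures. It rose by 0.65 (SE 0.070, limma adjusted p = 7.94e-04). Atp6v0a1, a subunit of the proton pump that acidifies the lysosome, read 8.80, 8.75 and 8.81 in the IFNβ cultures, against 8.19, 8.10 and 8.24 in the vehicle cultures, a rise of 0.61 (SE 0.046, limma adjusted p = 7.86e-05). In neither gene did the groups overlap.

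The protease Lgmn (legumain) rose by 0.42, Grn, the precursor of the granulins, by 0.41, and Sgsh, which degrades heparan sulphate, by 0.39, and these calls held. Those of Cpq (0.38), Npc2, which hands cholesterol out of the lysosome (0.31), and Gla and Atp6v0b (0.28 each) failed without 2 to 6 of the 6 arrays, with adjusted p up to 0.204. Cathepsin H (Ctsh) fell by 0.22 and lost its call without 5 arrays, and Gpr137b, a lysosomal membrane protein, fell by 0.44. A list of 70 lysosomal hydrolases and proton pump subunits was also written after the results were seen. Of its 62 measured genes 9 rose and 1 fell, which is 16.1% called against 1.02% of all genes. Here too the members were chosen with the calls known, so this share is no test of the group. Of the 62, 41 lay above 0, as did 48.9% of all genes, and the median was 0.07. Without 1 of the 6 arrays 5 to 7 of them were called, and 4 in the fit of the 3s arrays alone. A list of autophagy and lysosome genes, chosen with earlier results of these data known, has 43 measured members. Of them 2 rose and 1 fell (6.98% called, against 1.02% of all genes). The median of that list was 0.02, against -0.002 over all genes.

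**Figure D4:**
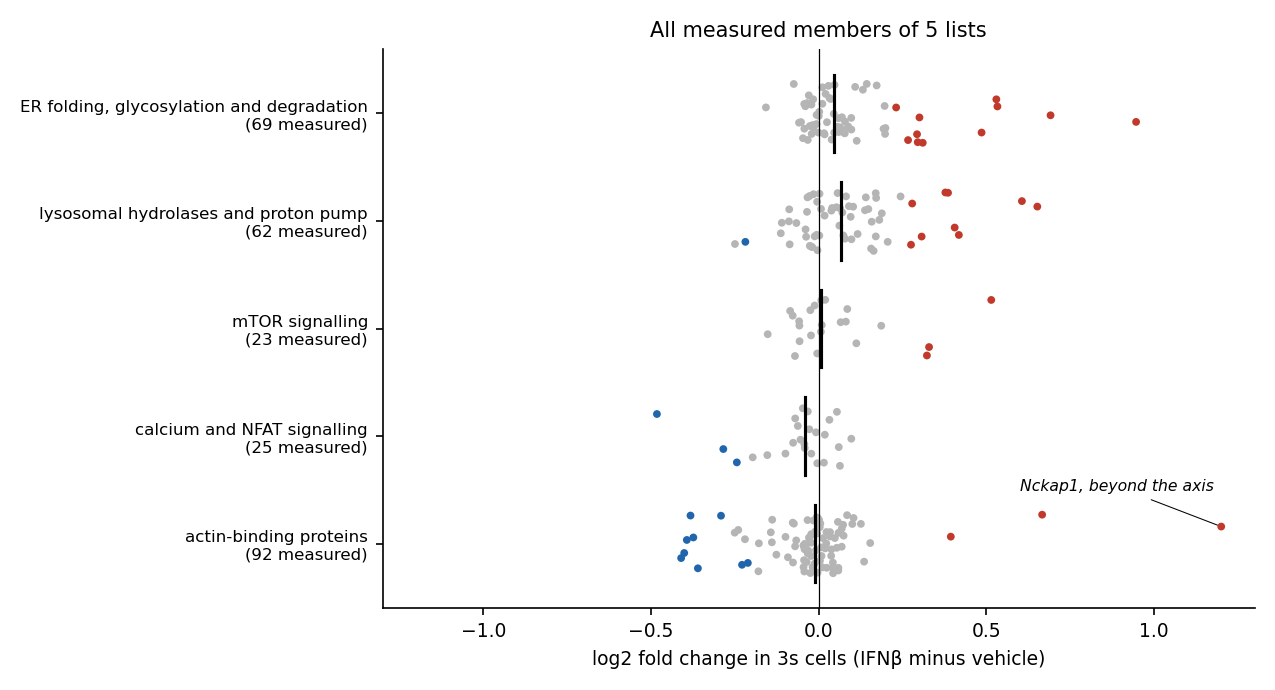
Log2 fold change in 3s cells (IFNβ minus vehicle, horizontal axis) of every measured member of 5 gene lists, 1 point per gene, with called rises in red, called falls in blue, the others in grey and the median as a black line. The lists of the endoplasmic reticulum, the lysosome and actin were written after the results were seen. Nckap1 lies beyond the axis at 3.99. The medians of the lysosome and endoplasmic reticulum lists lie at 0.07 and 0.05, and that of the calcium list at -0.04.

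Each of the 7 changed genes of phosphoinositide 3-kinase and mTOR signalling rose. This pathway passes signals from antigen and growth factor receptors to cell growth and metabolism. Pik3r3 read 9.44, 9.30 and 9.24 in the IFNβ cultures, against 8.24, 8.37 and 8.40 in the vehicle cultures, a rise of 0.99 (SE 0.080, limma adjusted p = 1.11e-04). Pik3ap1, an adaptor that links the B cell receptor complex to the kinase, read 12.64, 12.68 and 12.73 in the IFNβ cultures, against 12.12, 12.03 and 12.12 in the vehicle cultures, a rise of 0.59 (SE 0.051, limma adjusted p = 1.62e-04). The groups were apart in both.

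Mtor itself rose by 0.32, with 12.10, 12.09 and 12.13 in the IFNβ cultures, against 11.78, 11.77 and 11.82 in the vehicle cultures. Ddit4, which restrains mTOR complex 1, rose by 0.51, so members that promote and a member that restrains the pathway moved the same way. These 4 calls held. The catalytic subunit Pik3cb (0.38), the GTPase Rragd (0.33) and the insulin receptor Insr (0.30) each lost the call without any 1 of the 6 arrays, with adjusted p up to 0.164. In a list of mTOR signalling 3 of 23 measured genes rose, where 0.581% of all genes rose, 0 fell and the median was 0.01. With the replicate number as a block 0 of the 23 were called.

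Genes of lipid metabolism moved in both directions, 9 up and 5 down. Among the rises Elovl6, an elongase of long-chain fatty acids, read 13.78, 13.86 and 13.81 in the IFNβ cultures, against 13.47, 13.44 and 13.42 in the vehicle cultures, a rise of 0.37 (SE 0.042, limma adjusted p = 0.00103). Cers6, a ceramide synthase, rose by 0.50, Acsl4, which activates polyunsaturated fatty acids, by 0.28, and Angptl4, an inhibitor of lipoprotein lipase, by 0.52. All 4 calls held.

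Among the falls of this class are 2 enzymes that build glycolipid heads, B3gnt5, which starts the lacto series (a fall of 0.75), and B4galnt1, which makes complex gangliosides (a fall of 0.38). B3gnt5 read 8.33, 8.18 and 8.21 in the IFNβ cultures, against 8.96, 9.04 and 8.96 in the vehicle cultures. Phyh, a peroxisomal hydroxylase of branched fatty acids, fell by 0.61, the acyltransferase Gpat3 by 0.42 and Elovl4, an elongase of very long chains, by 0.60. The call of Elovl4 failed without 4 of the 6 arrays (adjusted p up to 0.0776). In a list of fatty acid synthesis and oxidation 2 of 27 measured genes were called (7.41%, against 1.02% of all genes), and in a list of cholesterol synthesis 0 of 20, with 0 at an unadjusted p under 0.05.

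The actin cytoskeleton and its regulators made up 27 of the changed genes, of which 11 rose and 16 fell. Beside Nckap1, rises were seen for Afdn, a scaffold of cell junctions (0.80), Iqgap2, a scaffold that binds Rac and Cdc42 (0.67), Rhoh, a GTPase of blood cells without GTPase activity (0.54), and the unconventional myosins Myo1e and Myo18b (0.50 each). Iqgap2 read 10.96, 10.99 and 10.96 in the IFNβ cultures, against 10.29, 10.13 and 10.50 in the vehicle cultures, without overlap. All these calls held.

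The falls include proteins that bind, bundle or cap filaments. Lcp1, the leukocyte plastin that bundles actin, read 12.13, 11.96 and 12.02 in the IFNβ cultures, against 12.41, 12.44 and 12.49 in the vehicle cultures, and fell by 0.41 (SE 0.048, limma adjusted p = 0.00145). Coro7, a coronin, fell by 0.39 and Fnbp1, which bends membranes at sites of actin assembly, by 0.24. Dock10, an exchange factor for Cdc42 that is prominent in B cells, was the tightest of the group, with 11.12, 11.12 and 11.13 in the IFNβ cultures, against 11.60, 11.60 and 11.59 in the vehicle cultures, a fall of 0.47. These 4 calls held.

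Flna, which crosslinks filaments (a fall of 0.36), Parvg, an integrin-linked adaptor (0.40), Cnn2 (0.38), Def6 (0.37), Capg (0.23) and Swap70 (0.21) fell by less certain amounts, and their calls failed without 4 to 6 of the 6 arrays. In the list of actin-binding proteins written after the results were seen, 3 of 92 measured genes rose, 9 fell and 80 did not pass, with a median of -0.01. That is 13% called, against 1.02% of all genes and 2.10% of bright ones, a share that cannot test the group, since its members were chosen with the calls known. Without 1 of the 6 arrays 5 to 9 were called. In the families of myosins (50 genes) and Dock exchange factors (10 genes) 4 and 2 were called, where 1.02% of all genes were, while of 35 kinesins and 16 tubulins 0 were, with 2 and 3 at an unadjusted p under 0.05.

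Of the 14 changed genes sorted under lymphocyte signalling 11 fell and 3 rose, and 5 of these calls held. Ptpn22, a phosphatase that restrains Src family kinases, read 5.66, 5.69 and 5.62 in the IFNβ cultures, against 6.64, 6.53 and 6.39 in the vehicle cultures, a fall of 0.87 (SE 0.082, limma adjusted p = 3.20e-04). Prkcb, the protein kinase C that links the B cell receptor to NF-kB, read 9.66, 9.82 and 9.77 in the IFNβ cultures, against 10.44, 10.43 and 10.41 in the vehicle cultures, a fall of 0.68 (SE 0.064, limma adjusted p = 3.12e-04). The groups of both were apart, and both calls held.

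Fyn, a Src family kinase, fell by 0.51 and Spred1, an inhibitor of Ras signalling, by 0.33, and both calls held. In a list of calcium and NFAT signalling 0 of 25 measured genes rose and 3 fell, where 0.438% of all genes fell, with a median of -0.04 and 18 of the 25 below 0. The 3 are Atp2a3, a calcium pump of the endoplasmic reticulum (0.48), Ppp3cc, a catalytic subunit of calcineurin (0.28), and Camk1d, a calmodulin-dependent kinase (0.24), and their calls failed without 3, 5 and 6 of the 6 arrays. In the fit of the 3s arrays alone 0 of the 25 were called. Rasgrf2, an exchange factor for Ras (0.53), was the rise of this class that held, whereas Fcgr2b, the inhibitory Fc receptor of B cells, rose by 0.44 and lost its call without any 1 of the arrays.

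Of 89 potassium channel genes 3 fell and 0 rose (3.37% called, against 1.02% of all genes), among them Kcna3, the voltage-gated channel that sets the membrane potential of lymphocytes. Kcna3 read 10.91, 11.02 and 10.89 in the IFNβ cultures, against 11.41, 11.30 and 11.29 in the vehicle cultures, a fall of 0.39 (SE 0.066, limma adjusted p = 0.0145) without overlap. It failed without 3 of the 6 arrays, and Kcnk10 and Kcnab2 (falls of 0.31 and 0.26) without any 1 of them. Lrrc8c, a subunit of volume-regulated anion channels (a fall of 0.46), and Slc9a7, a sodium-proton exchanger of the Golgi (0.45), held. Of 363 solute carriers 3 were called, all downward, a share of 0.826% that is close to the 1.02% of all genes.

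Receptors and their ligands at the cell surface were the largest class. Il7r, the alpha chain of the receptor for interleukin 7 on which early B cells depend, was among the brightest genes that fell. It read 12.80, 12.88 and 12.67 in the IFNβ cultures, against 13.48, 13.44 and 13.31 in the vehicle cultures, a fall of 0.62 (SE 0.063, limma adjusted p = 4.82e-04). Il17ra, a chain of the interleukin 17 receptor, fell by 0.37. Il7r and Il17ra were the 2 called of 30 measured in a list of cytokine receptors (6.67%, against 1.02% of all genes). Lifr, the receptor for leukaemia inhibitory factor, is not in that list and rose by 0.54 (limma adjusted p = 0.00139). All 3 calls held.

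Lgals9, which encodes galectin 9, was the brightest large rise, with 14.27, 14.22 and 14.23 in the IFNβ cultures, against 13.59, 13.51 and 13.58 in the vehicle cultures, a rise of 0.68 (SE 0.050, limma adjusted p = 6.38e-05). Timd2, a surface receptor of the TIM family, rose by 0.64 and Tgfb2, a secreted ligand of the TGF-beta family, by 0.92. S1pr1, the sphingosine phosphate receptor that guides lymphocytes out of lymphoid tissue, rose by 0.47 but lost its call without 5 of the 6 arrays (adjusted p up to 0.171).

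Cd55, which shields cells from complement, read 8.78, 8.79 and 8.73 in the IFNβ cultures, against 9.56, 9.64 and 9.45 in the vehicle cultures, and fell by 0.78 (SE 0.072, limma adjusted p = 2.55e-04). Its near copy Cd55b fell by 0.57, and whether the probes of one also read the other is not stated in the sources used. The integrin chain Itga9 fell by 0.59, the tetraspanins Tspan32 and Cd53 by 0.40 and 0.34, and Spn, the sialophorin CD43, by 0.46. Cd53 was the brightest of the called genes. All these calls held.

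The 7 changed genes of antigen presentation all fell. This class holds called genes only and was made after the results were seen. The measured genes of antigen presentation that did not pass were not counted, so no share called can be given. H2-Eb1, a class II chain, read 11.64, 11.79 and 11.93 in the IFNβ cultures, against 12.52, 12.32 and 12.66 in the vehicle cultures, a fall of 0.71 (SE 0.092, limma adjusted p = 0.0029). H2-DMb2, a chain of the DM molecule that loads peptide onto class II, fell by 0.73, and these 2 calls held. Those of Ciita, the activator of class II genes (0.38), Mr1 (0.50), H2-DMb1 (0.50), H2-DMa (0.42) and H2-Ab1 (0.32) failed without 2 to 6 of the 6 arrays. H2-DMb1 and H2-DMb2 are close copies, so their values may share signal.

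Transcription factors and chromatin proteins rose in 15 cases and fell in 6, but 4 of these 21 calls held, those of Brwd1, Irf4, Bcl11a and the zinc finger gene Zfp558. Irf4, a factor of late B cell development and of kappa gene rearrangement, read 12.43, 12.40 and 12.41 in the IFNβ cultures, against 11.82, 11.81 and 11.93 in the vehicle cultures, a rise of 0.56 (SE 0.054, limma adjusted p = 3.43e-04). Its relative Irf8 fell by 0.25, a call lost without any 1 of the arrays. Sox4, needed in B cell progenitors, rose by 0.32, Klf3 fell by 0.48, and each failed without 1 array, Sox4 without IFNβ replicate 2 (adjusted p = 0.0527) and Klf3 without IFNβ replicate 3 (adjusted p = 0.0523). The nucleosome remodellers Chd7 and Smarca4, which rose by 0.30 and 0.23, were the 2 called of 34 measured remodellers (5.88%, against 1.02% of all genes), and failed without 3 and 5 arrays.

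Of the genes that restrain growth or are linked to p53, Btg2, an antiproliferative factor, rose by 0.71, with 10.06, 9.90 and 9.73 in the IFNβ cultures, against 9.25, 9.21 and 9.10 in the vehicle cultures. Trp53i11 rose by 0.67 and Trp53inp1, a p53-induced nuclear protein, by 0.28, while Cdkn1a fell as described. These calls held. Zfp36, which destabilises mRNAs, rose by 0.59 and failed without 5 of the 6 arrays.

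Of the 8 changed genes sorted under DNA repair and replication, Rag2 among them, 6 rose and 2 fell, and 4 of the rises and the 2 falls held. Neil1, a glycosylase that removes oxidised bases, read 9.47, 9.55 and 9.59 in the IFNβ cultures, against 8.93, 8.79 and 8.87 in the vehicle cultures, a rise of 0.67 (SE 0.054, limma adjusted p = 1.06e-04). Prkdc, the catalytic subunit of the kinase that joins broken ends, fell by 0.39 and Brca2, which acts in homologous repair, by 0.28, and the 3 calls held. In lists of DNA replication (41 measured) and of cohesin and condensin (27) 1 gene each was called, Cdc7 and Ncapd3, both upward. These are shares of 2.44% and 3.7%, against 1.02% of all genes and 2.1% of bright ones. The call of Cdc7 failed without 5 of the 6 arrays (limma adjusted p up to 0.156), and that of Ncapd3 held. The median of the replication list was -0.05.

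Of 42 lists and 50 symbol families written with earlier results of these data known, 24 lists and 31 families had 0 calls. Over all of them 56 of 5150 genes were called, 28 in each direction, and this share of 1.09% is close to the 1.02% of all genes. Calls were 0 among the measured genes of glycolysis (22, with 2 at an unadjusted p under 0.05), the citrate cycle (24, with 0), translation factors (31, with 1), heat shock proteins (21, with 1), proteasome subunits (47, with 0), mitochondrial ribosomal proteins (74, with 0), complex I (41, with 2), splicing factors (38, with 4), Polycomb proteins (28, with 2), Notch signalling (27, with 2) and Wnt signalling (31, with 4). The share of 1.02% over all genes comes to less than 1 call in a list of this size, so these counts of 0 are near the background. They come from limma, and a gene that did not pass is not shown to be unchanged.

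The 30s cells received the same treatment, and the IFNβ effects of the 2 lines were compared gene by gene in the same fit. In 30s cells 346 genes changed (1.15%). Of the 307 called genes of 3s cells, 165 had the same sign in 30s cells, 19 changed there in the same direction and 11 in the opposite one. The difference of the effects, 3s minus 30s, passed its test for 147 of the 307 (91 rises and 56 falls), and over all genes for 307 (1.02%). With the replicate number as a block it passed for 69 of the 307. The 307 called genes were selected by the 3s change, which is part of the difference. Their share therefore cannot be set against that of all genes.

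The 11 opposed genes include Brwd1, which rose by 1.85 in 3s cells and fell by 0.70 in 30s cells, a difference of 2.55 (limma adjusted p = 9.39e-06). Trp53i11 rose by 0.67 in 3s cells and fell by 0.62 in 30s cells, and Timd2 rose by 0.64 in 3s cells and fell by 0.53 in 30s cells. P2rx3, an ATP-gated channel, rose by 0.81 in 3s cells and fell by 0.55 in 30s cells, and Arrdc3, an arrestin-like adaptor, rose by 0.48 in 3s cells and fell by 0.58 in 30s cells. Their differences all passed, at limma adjusted p of 4.18e-04, 0.00129, 0.0029 and 0.0015 for Trp53i11, Timd2, P2rx3 and Arrdc3. The call of Arrdc3 in 3s cells failed without 3 of the arrays. Abcb1b, a drug efflux pump, ran the other way, falling by 0.64 in 3s cells and rising by 0.44 in 30s cells.

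The genes that changed the same way in both lines include Enpep, a glutamyl aminopeptidase (0.82 in 3s cells, 0.53 in 30s cells), and Egfl6 (-1.26 in 3s cells and -0.74 in 30s cells), whose differences did not pass (limma adjusted p = 0.402 and 0.138). Phyh, Prkcb, Dock10, Capg and Ctsh fell and Gla, Gsr, Got1, Dclre1a and Jcad rose in both lines, and the difference passed for none of these 10. Enpp4, an ectonucleotidase-like surface enzyme, rose by 0.86 in 3s cells and by 0.34 in 30s cells, and here the difference did pass (0.53, limma adjusted p = 0.0103). Of the functional groups above, the difference passed for 6 of the 69 measured genes of the endoplasmic reticulum list. It passed for 6 of 62 of the lysosome list and for 7 of 92 of the actin list, against 1.02% of all genes. The lists were written with the 3s calls known and the difference contains the 3s change, so these counts are no test of the groups.

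**Figure D5:**
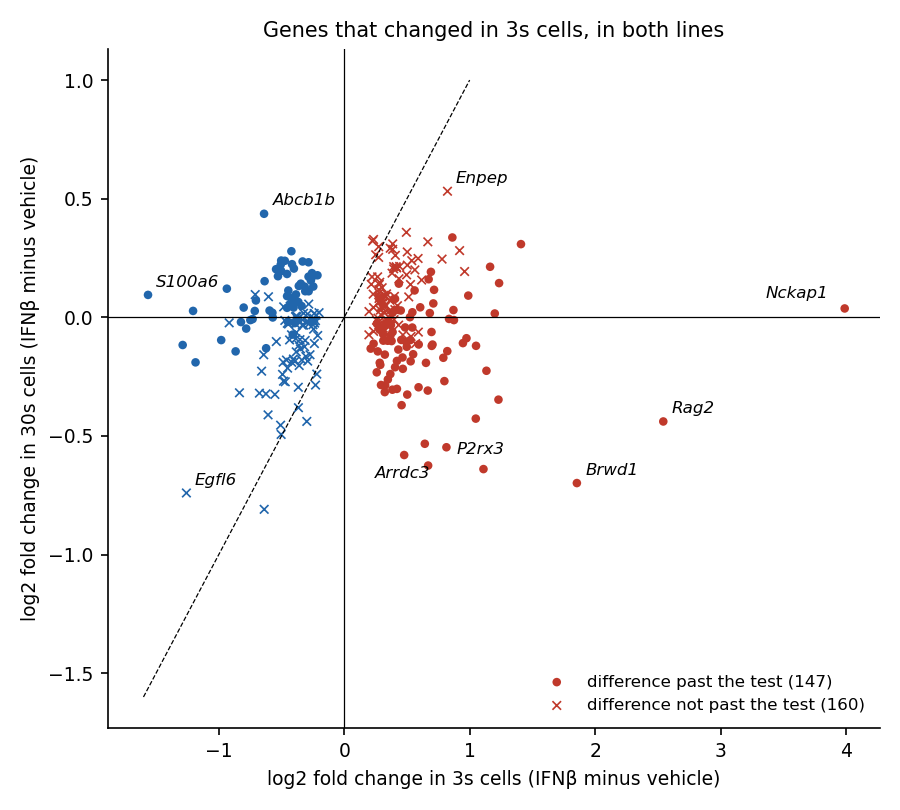
Log2 fold change (IFNβ minus vehicle) in 3s cells (horizontal axis) and in 30s cells (vertical axis) of the 307 genes called in 3s cells, 1 point per gene, with rises in red and falls in blue. Filled circles mark the 147 genes whose difference between the lines passed the test, crosses the other genes, and the dashed line marks equal changes. Nckap1 and most other genes lie near 0 in 30s cells, and Brwd1 lies below 0.

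The changed genes were spread over the genome. Calls made up 0.543% (chromosome 6) to 1.58% (chromosome 13) of the genes of each autosome and 0.920% of those of the X, and the median change of bright genes stayed within 0.05 of 0 on each of these chromosomes. Changed genes that lie next to each other moved together, however. By RefSeq order 14 pairs of called genes are direct neighbours among the measured genes, and in all 14 both moved the same way. A called neighbour was found for 25 of the 307 called genes (8.14%) and for 576 of 29794 other genes (1.93%). The other genes were not matched for brightness, and 2.1% of bright genes were called against 0.168% of those under 6. How much of the gap between the shares goes with brightness was not tested. Over 3228 adjacent pairs of bright genes not both called, 55.5% had the same sign. Without 1 of the 6 arrays 8 to 12 such pairs were called, and at most 1 of them moved in opposite directions.

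Brwd1 and the nucleosome-binding gene Hmgn1 are such a pair, with rises of 1.85 and 0.28, as are Leprotl1 and Saraf (0.87 and 0.95), Vps26b and the condensin gene Ncapd3 (1.05 and 0.26), Dmwd and the kinase gene Dmpk (0.87 and 0.37), and Atrnl1 and the receptor gene Gfra1 (0.42 and 0.35). Leprotl1 read 9.99, 9.91 and 9.91 in the IFNβ cultures, against 8.94, 9.12 and 9.14 in the vehicle cultures, and its neighbour Saraf was likewise higher in all 3 IFNβ cultures. On the X chromosome Gm5133, Gm6325, Fndc3c1 and Cysltr1 follow each other without another measured gene between them and rose by 0.67, 0.59, 1.41 and 1.16, and H2-DMa, H2-DMb2 and H2-DMb1, which fell, also follow each other. The calls of Hmgn1, Atrnl1 and H2-DMb1 failed without 5 of the 6 arrays, that of H2-DMa without any 1 of them and that of Gm5133 without 3 (adjusted p up to 0.0597). Of the 14 pairs 2 overlap in RefSeq, and for those the probes may read the same transcript, which was not tested. H2-DMb2 and H2-DMb1 are close copies, and Gm5133 and Gm6325 are pseudogenes. Whether probes are shared within their pairs was not tested either.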

How the data were processed

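RNA of 12 cultures, 3 in each of 4 groups, was hybridised to Affymetrix Mouse Transcriptome Arrays 1.0. The values, deposited on a log2 scale, came from the authors' RMA summary (the submitters' processing notes name Affymetrix Expression Console 1.4, the methods Partek Genomics Suite), and they were used as deposited. The genome build of the annotation is not given in the sources used. Of 72688 probe sets, 30646 name 1 gene, 2168 name several and 33142 none, beside 6732 controls, and 330 symbols were updated through RefSeq. The probe set with the highest mean over the 12 arrays stood for a gene. Group means were fitted in 1 limma 3.58.1 model (R 4.3.3, 8 residual degrees of freedom, prior 3.15), two-sided, with Benjamini-Hochberg adjustment over 30106 genes. The fit was tested on simulated data. The comparison, gene lists and symbol families were chosen with earlier results of these data known, and the classes and 3 lists after these results were seen. Named by rule were the 25 largest rises and 25 largest falls among genes past the test whose groups do not overlap, without predicted genes, small RNAs and receptor gene segments, up to 4 called members of each list or family, and Runx1, Runx3 and Cbfb (Runx3 0.01 and Cbfb -0.01, neither past the test). Other genes were named after their values were seen. The number of arrays limits the precision. Alternatives were the arrays fitted, a replicate block, moderation, array weights, the methods' t-test, normalisation, dim genes, probe set means, the study's thresholds and leaving out each array. The pairs of neighbours were examined after the results were seen.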

Additional observations from a re-analysis of the deposited data

Results flagged for a closer look

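For 37 of the 50 genes with the largest changes in 3s cells, the IFNβ effect differed between the lines by limma's test of the difference (3s minus 30s, adjusted p under 0.05, n = 3 cultures per group). The 50 were selected by their 3s change, which is part of the difference, so this is not the count of an unselected set. The values are differences of log2 fold changes. Among the rises in 3s cells the difference was 3.95 for Nckap1, 2.98 for Rag2, 2.55 for Brwd1, 1.48 for Hsd17b13, 1.36 for P2rx3, 1.18 for Cgas, 1.17 for Vps26b and 1.1 for Fndc3c1. It was 1.09 for Fsip2l, 1.07 for Afdn, 1.06 for Cfap300, 1.05 for Saraf, 0.96 for Serinc5 and Ublcp1, 0.95 for Cysltr1 and 0.90 for Pik3r3. It was 0.89 for Dmwd, 0.84 for Leprotl1, 0.65 for Btg2, 0.60 for Ypel2 and 0.53 for Enpp4.

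Among the falls the difference was -1.66 for S100a6, -1.23 for Myl4, -1.17 for Cybb, -1.08 for Abcb1b, -1.06 for Tlr4, -0.88 for Eml1, -0.84 for Cdkn1a and -0.80 for Bcl11a. It was -0.79 for Serpinb1a, -0.78 for Pcmtd1, -0.74 for B3gnt5 and H2-Eb1, -0.73 for Cd55, -0.72 for Ptpn22 and H2-DMb2 and -0.49 for Il7r. In 30s cells Abcb1b and Enpp4 were higher and Brwd1 and P2rx3 were lower after IFNβ, each past the test.

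Probe sets outside the gene comparison also carried signal. In a fit over all 65956 probe sets that are not controls, 41 of 33142 probe sets without a symbol passed the test in 3s cells (23 rose, 18 fell, 0.124%), and 8 of 2168 with several symbols (6 rose, 2 fell, 0.369%), against 0.568% of those with 1 symbol. The 8 include a probe set shared by Rag1 and Iftap, which rose by 0.58, and one shared by S100a11 and 2 related genes, which fell by 0.63.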

How the results depend on the processing

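The count of 307 changed genes (175 rises, 132 falls) depended on how the spread was estimated. It was 154 (92 and 62) in a fit of the 6 arrays of 3s cells alone, 8 (5 and 3) in the methods' t-test after Benjamini-Hochberg, and 190 to 202 without 1 of the 6 arrays of 3s cells (104 to 122 rises and 78 to 94 falls). At the study's thresholds without adjustment 460 genes passed in limma, 209 of them downward, and 366 in the methods' t-test, 151 of them downward. Of genes in the lists and families 24 were called in the fit of the 3s arrays alone and 30 to 37 without 1 array, against 56. With the replicate number as a block 172 genes changed (98 and 74), 161 of them shared with the 307, 27 were in the lists, and 69 of the 307 differences between the lines passed, against 147. Same-numbered cultures of 3s cells did not deviate together (r of -0.10, 0.13 and 0.06). Cultures of unlike number gave r of -0.21 to 0.15. The same-numbered values lie within that range, so they cannot decide whether the numbers pair the cultures. Moderation with an intensity trend (289), array weights (328), median centring (295), quantile normalisation (303), averaged probe sets (303) and leaving out dim genes (396) gave counts within 1.5-fold. None of the settings run gave a call opposite to the 307. Of 1540 values of named genes 349 lost the call, and among the genes called in the main fit 0 changed direction. A change of direction was counted for called genes only, so Runx1, Runx3 and Cbfb could not enter this count. With 3 arrays per group, their number limits what can be called.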

Other observations

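Several further genes passed the test in 3s cells. Serinc5, a membrane protein that lowers the infectivity of retroviruses, read 11.41, 11.39 and 11.32 in the IFNβ cultures, against 10.46, 10.54 and 10.66 in the vehicle cultures, a rise of 0.82 (limma adjusted p = 7.05e-04). The mitochondrial transhydrogenase Nnt, which makes NADPH, rose by 0.42, and Card6, a caspase recruitment domain protein, by 0.70. The calcium-dependent membrane binders Anxa1 and Anxa6 fell by 0.54 and 0.42, beside S100a6, and Srgn, the core protein of secretory granule proteoglycans, fell by 0.41. F9, coagulation factor IX, fell by 0.83. The groups did not overlap in any of these genes, which was so for every called gene. All these calls held when each of the 6 arrays was left out in turn. In 30s cells Serinc5 stood at -0.14 and Anxa1 at 0.20, and the difference from 3s cells was 0.96 for Serinc5 (adjusted p = 0.00418) and -0.75 for Anxa1 (adjusted p = 0.0015).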
